A study of Drosophila melanogaster with 50 samples.

Results

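Several subunits of the fly respiratory chain are encoded by a pair of genes, one transcribed in nearly all tissues and a second with a restricted pattern. The set described here is a list of 10 such restricted genes: COX4L, COX5BL, COX6AL, COX7AL and COX7AL2 of cytochrome c oxidase, Cyt-c1L of the cytochrome bc1 complex, the cytochrome c gene Cyt-c-d, and ATPsynCF6L, ATPsynGL and ATPsynbetaL of the ATP synthase. A gene was taken as measured when a probeset of the array carried its symbol and no other, which held for 9 of the 10, among 11982 genes with such a probeset. Cyt-c-d was on no probeset of its own and is not analysed here. Each of the 9 had 1 probeset, and the genes were chosen by measured values, since earlier results of these arrays showed that some differed by sex and that COX7AL2 was lower in old flies. The contrast of the sexes at 1g and that of the ages are therefore given below as descriptions, without a test.

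The study hybridized RNA of whole adult Oregon R flies to 50 Drosophila 2.0 arrays in 18 groups, after exposure in 3 facilities that alter the effective gravity. On the random positioning machine (RPM), which turns the flies about changing axes, flies 5 days old at 14C were labelled females (3 arrays at 0g and 3 at 1g outside the machine) or males (4 arrays at 0g and 3 at 1g). In the magnet, females 5 days old at 14C were levitated (0g*, 3 arrays) or held at other positions of the same field (1g*, 3 arrays, and 2g*, 3 arrays), with females outside the field at 24C (3 arrays) or 14C (2 arrays). In a second set of magnet arrays, labelled as a run of 80 h, females 5 days old were at 0g* or 1g* (2 arrays each) at 14C, with females outside the field at 24C (3 arrays). In the large diameter centrifuge (LDC) at 22C, females of 20 or 5 days were at 2g (4 arrays per age), in the rotational control (1g-rot, 2 per age) or at 1g outside (2 per age). The labels give all groups the Oregon R strain and name no mutation or transgene. Since the facilities differ in temperature and run, tests were made only within one. Gaps, ranges and correlations across facilities are given as descriptions, and the part of temperature and run in them was not tested.

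Respiratory complexes III and IV pass electrons through cytochrome c to oxygen, and the ATP synthase uses the proton gradient they build. In Drosophila many second copies of the nuclear-encoded subunits are transcribed in the male germ line, where the mitochondria of each spermatid fuse, form the layered nebenkern and then stretch along the growing tail. In mammals some subunits, COX7A among them, instead have separate forms for muscle and heart and for other tissues. The genes are scattered over the genome: COX5BL lies beside COX5B on chromosome arm 2L with 0 genes between them, COX7AL and COX7A lie on 3R with 2 genes between, and the remaining measured pairs are not such close neighbours.

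Values are log2 intensities, so that a difference of 1 is a 2-fold change, and the hybridization background was taken as the 95th percentile of 50 plant control probesets, which lay between 3.86 and 4.49 per array. Group means of ATPsynCF6L were under this background in 16 of 18 groups, of COX5BL in 15, of COX7AL in 13 and of COX4L in 5, and where the dim group of a contrast was under it on all or most arrays, the difference is given as a bound ("at least"), with each array held at its background. A limma p-value beside such a bound is that of the fit to the values as deposited. The other 5 members were above background in all groups. On the RPM the sex labels ran against the sex-specific transcripts. The 6 arrays labelled females had median intensities of 8.01 to 8.59 over 29 testis and sperm genes and 11.24 to 12.26 over 19 accessory gland genes, while over 15 eggshell genes they had 4.73 to 8.88, against 10.70 to 12.30 on the 7 arrays labelled males. The labels are used as given, and any direction drawn from them concerns the arrays labelled females or labelled males. In addition 6 arrays, called mixed here, held transcripts of both sexes: replicates 2 and 3 of labelled females at 0g, replicate 3 of labelled females at 1g, replicate 1 of labelled males at 0g, and replicate 1 of 1g* in each magnet set. On the 3 mixed arrays labelled females the median of the 3 yolk protein genes was 12.99, 9.71 and 9.62, against 5.20, 5.57 and 5.42 on the other 3. The eggshell median was 4.90 to 5.12 on all 3 of the 1g arrays labelled females. Replicate 3 at 1g is thus called mixed by its yolk genes and not by the eggshell genes. Leaving out the mixed arrays leaves 1 array labelled females at 0g, so values without them are then given with no test.

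**Figure D1:**
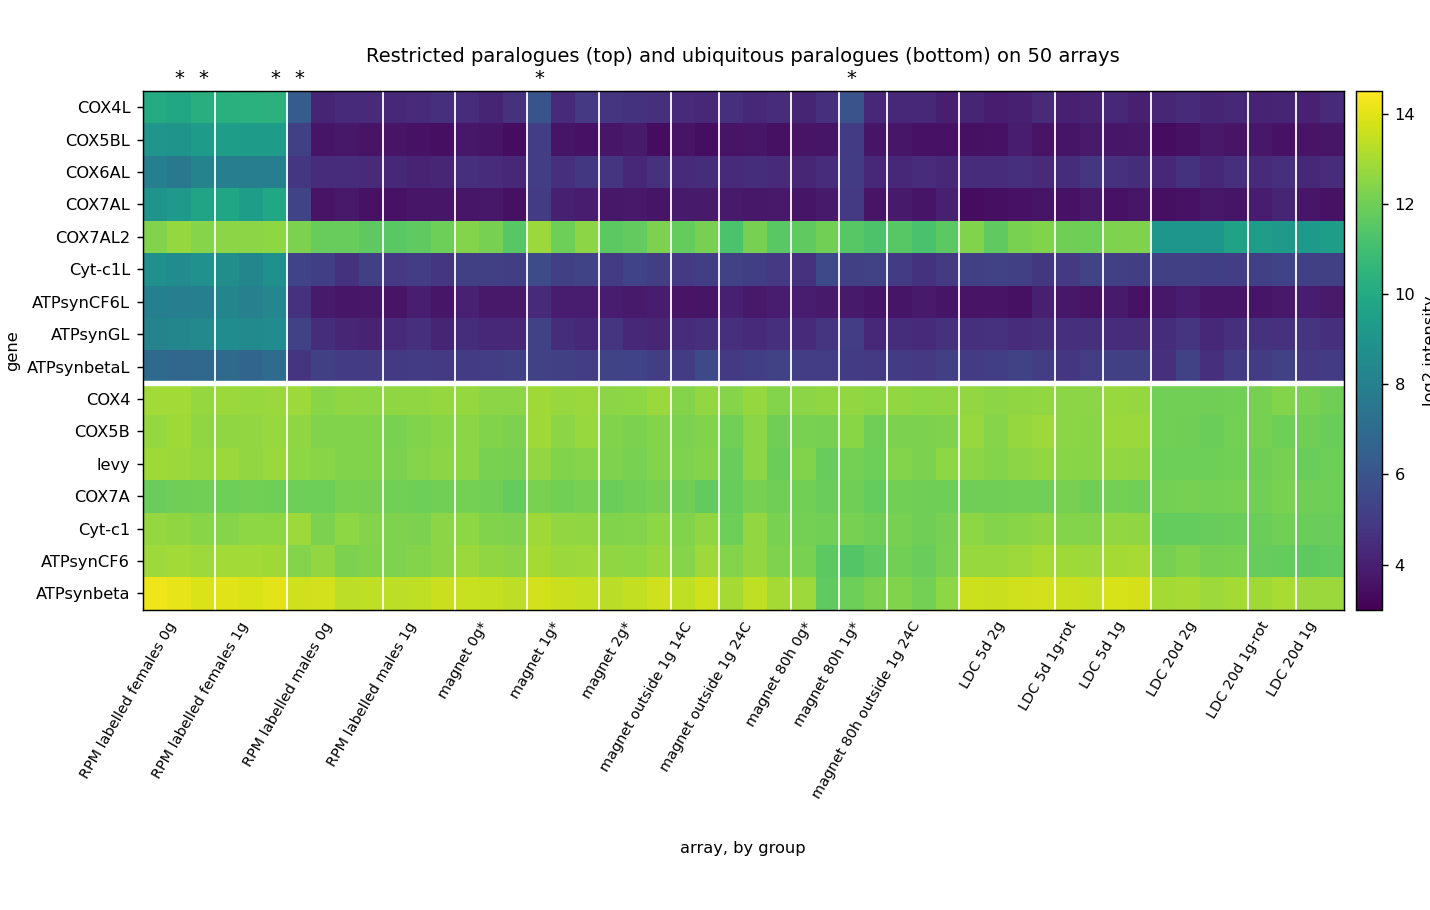
Log2 intensity of the 9 measured members (upper rows) and the 7 measured ubiquitous paralogues (lower rows) on all 50 arrays (columns, by group), with the 6 arrays that held transcripts of both sexes starred. For 8 members only the 6 RPM arrays labelled females stand out as bright (the lowest of them 6.77, for ATPsynbetaL), and for COX7AL2 only the 8 LDC arrays of 20 d are dim (9.02 to 9.62).

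The members fell into 2 patterns over the 50 arrays. COX4L, COX5BL, COX6AL, COX7AL, Cyt-c1L, ATPsynCF6L, ATPsynGL and ATPsynbetaL were bright on the RPM arrays labelled females and near or a little above background on the rest. COX7AL2 was at 11.21 or above on every array of flies 5 days old, of either label, and lower on the 8 arrays of 20 d. For each of the first 8 the 2 groups labelled females had the highest means, and the gap to the third group was 4.93 for COX4L, at least 4.72 for COX7AL, at least 4.47 for COX5BL, 3.59 for ATPsynGL, at least 3.58 for ATPsynCF6L, 3.18 for Cyt-c1L, 3.07 for COX6AL and 1.62 for ATPsynbetaL. By group means as deposited, the next group after those labelled females was 1g* of a magnet set, which holds a mixed array, except for ATPsynbetaL. For ATPsynCF6L it was 1g* of the magnet (mean 4.07). The bound of at least 3.58 for ATPsynCF6L was instead taken to outside the magnet at 14C. That group had the lowest deposited mean of the 18 groups (3.62) and came next only with each array held at its background. Over the 50 arrays the 8 genes correlated with each other at Pearson r between 0.931 and 0.995, values that rest on the 6 arrays labelled females, and with COX7AL2 at 0.307 to 0.407. Over the 37 magnet and LDC arrays, labelled females throughout, r among the 8 spread between 0.064 and 0.85.

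Of the cytochrome c oxidase members 4 were bright at 1g on arrays labelled females and dim on those labelled males. COX4L, the second copy of a subunit that in mammals tunes the activity of the enzyme, had 10.29, 10.33 and 10.41 on the 1g arrays labelled females, against 4.26, 4.38 and 4.53 on those labelled males. The 2 sets did not overlap, and the difference was 5.95 (SE 0.41). COX5BL, the copy of a zinc-binding subunit on the matrix side, had 9.45, 9.36 and 9.35 at 1g on arrays labelled females, against 3.59, 3.55 and 3.49 on arrays labelled males, which were under background, so the difference was at least 5.32. COX7AL, a copy of the small subunit COX7A, had 9.80, 9.39 and 9.85, against 3.54, 3.70 and 3.68 on arrays labelled males, a difference of at least 5.61. COX6AL, whose widely transcribed counterpart in the fly is levy, was less far apart. It had 7.94, 7.92 and 7.95 at 1g on arrays labelled females, against 4.31, 4.14 and 4.24 on arrays labelled males (3.71, SE 0.14).

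The members of complex III and of the ATP synthase ran the same way. Cyt-c1L is the copy of the heme-bearing subunit that hands electrons to cytochrome c, and it had 8.70, 8.26 and 8.79 at 1g on arrays labelled females, against 4.93, 5.10 and 4.82 on those labelled males (3.63, SE 0.17). ATPsynCF6L, from the peripheral stalk that holds the motor in place, had 8.23, 8.0 and 8.32, against 3.60, 3.95 and 3.69 on arrays labelled males, a difference of at least 4.11. ATPsynGL, a membrane subunit found where ATP synthase dimers form, had 8.60, 8.49 and 8.58 on arrays labelled females against 4.35, 4.60 and 4.21 on arrays labelled males (4.17, SE 0.23). The catalytic subunit copy ATPsynbetaL had the smallest difference of the 8, with 6.98, 6.77 and 7.06 on arrays labelled females and 4.96, 5.02 and 4.95 on arrays labelled males (1.96, SE 0.12). COX7AL2, a further copy of COX7A, was bright in both, with 12.52, 12.49 and 12.53 on arrays labelled females against 11.58, 11.67 and 11.97 on arrays labelled males (0.77, SE 0.16). The median difference of the 9 members at 1g was 4.17, or 4.11 with the dim genes at their bounds. Without the mixed array labelled females the differences ran from 0.76 for COX7AL2 to 5.92 for COX4L, with the dim genes at their bounds. All 9 were higher on arrays labelled females without overlap. By limma 22.7% of all probesets were called higher, which is another measure, and the share without overlap was not computed. Nothing is read from the count of members, since this contrast served to choose the genes.

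**Figure D2:**
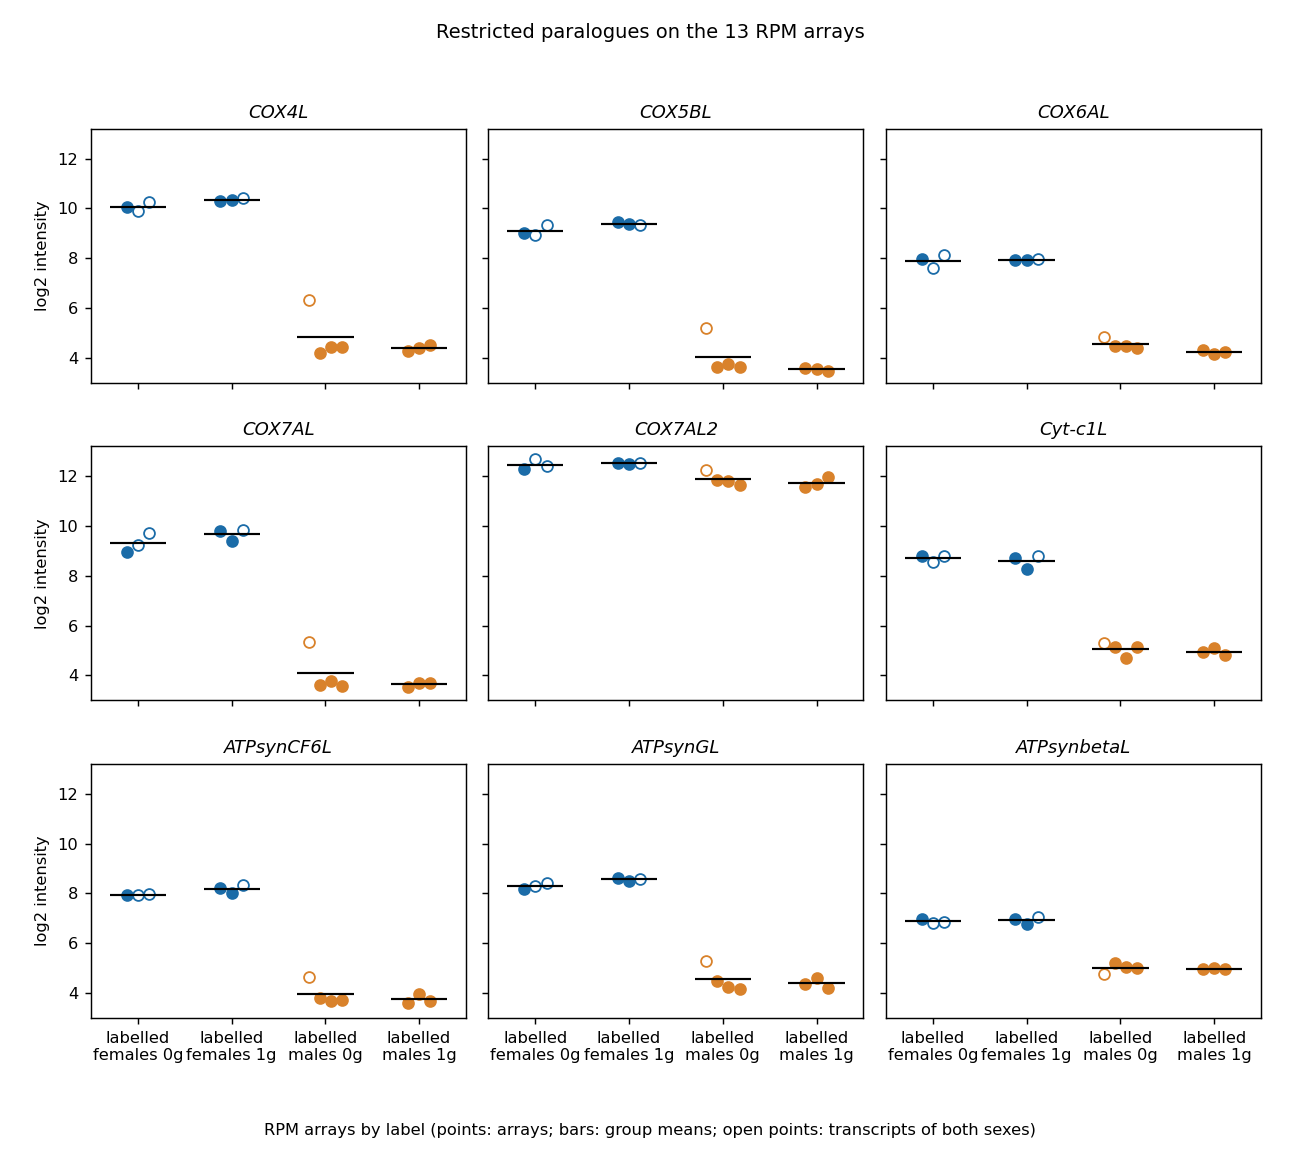
Log2 intensity of each member on the 13 RPM arrays, with arrays labelled females (blue) left of those labelled males (orange) at 0g and 1g; points are arrays, bars group means, open points arrays with transcripts of both sexes. In all 9 panels the arrays labelled females lie above those labelled males, by the least for COX7AL2 (0.57 at 0g and 0.77 at 1g).

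The 0g arrays of the RPM are other samples than those at 1g, and the same difference of labels was tested there in a limma fit across 18769 probesets. Whether these arrays also entered the choice of the genes is not known. The p-values at 0g, those of the pairs below among them, therefore cannot be taken as independent evidence of the difference. COX4L had 10.06, 9.91 and 10.24 at 0g on arrays labelled females, against 6.34, 4.20, 4.42 and 4.43 on arrays labelled males. The first of the 4 labelled males was the mixed one, and it lay between the 2 sets. The difference was 5.22 (SE 0.38, limma adjusted p = 9.1e-08), and 5.71 between the 1 array labelled females and the 3 labelled males that were not mixed. COX5BL had 9.01, 8.93 and 9.34 against 5.20, 3.63, 3.74 and 3.62 on arrays labelled males (at least 4.70, limma adjusted p = 1.4e-08). COX7AL had 8.94, 9.23 and 9.73 against 5.35, 3.62, 3.77 and 3.58 on arrays labelled males, 3 of which were under background (at least 4.87, limma adjusted p = 4.2e-08). For both genes the same labelled male array was again the highest of its group, and it remained below every array labelled females.

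COX6AL differed by 3.36 at 0g (SE 0.13), with means of 7.90 on arrays labelled females and 4.54 on arrays labelled males, and Cyt-c1L by 3.65 (SE 0.16), with means of 8.72 on arrays labelled females and 5.08 on arrays labelled males (limma adjusted p = 8.3e-10 and 1.4e-09). ATPsynCF6L had 7.95, 7.92 and 7.96 on arrays labelled females against 4.63, 3.81, 3.68 and 3.73 on arrays labelled males, a difference of at least 3.69 (limma adjusted p = 2.8e-09). ATPsynGL had 8.16, 8.29 and 8.43 against 5.28, 4.49, 4.24 and 4.16 on arrays labelled males (3.75, SE 0.21, limma adjusted p = 9.6e-09). The catalytic copy ATPsynbetaL was once more the closest of the 8, with 6.97, 6.81 and 6.86 against 4.75, 5.20, 5.04 and 4.99 on arrays labelled males (1.89, SE 0.11, limma adjusted p = 1.2e-08).

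COX7AL2 differed little at 0g. It had 12.30, 12.70 and 12.39 on arrays labelled females, against 12.25, 11.84, 11.82 and 11.66 on arrays labelled males, a difference of 0.57 (SE 0.15, limma adjusted p = 0.0045). The groups did not overlap, but the gap was only 0.05 between 12.30 and the 12.25 of the mixed labelled male array. This call depended on the scaling: the arrays labelled females had medians over all probesets 0.39 higher, and once arrays were centred on their medians the COX7AL2 difference was 0.18 with a limma adjusted p of 0.2. Of 13 muscle genes 7 were also called higher on the 0g arrays labelled females, beside 21.4% of all probesets. The median difference of the 13 was 0.43, near the 0.39 shift of the array medians. The part of muscle RNA in the COX7AL2 difference was not tested.

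All 9 members were called higher by limma on the 0g arrays labelled females, and their groups did not overlap. Of all probesets 21.4% were called higher (4024) and 5627 were called lower. With the arrays centred on their medians the split was 2619 higher and 12951 lower. The median difference of the members was 3.75, or 3.69 with the dim genes at their bounds, against -0.13 over all probesets tested. Among the 18769 probesets 156 were further up than COX4L, 1383 than ATPsynbetaL and 3146 than COX7AL2. Between the 1 array labelled females and the 3 labelled males that were not mixed, the differences were 3.86 for ATPsynGL, 3.78 for Cyt-c1L, 3.51 for COX6AL, 1.89 for ATPsynbetaL and 0.53 for COX7AL2, and at least 4.89 for COX5BL, 4.82 for COX7AL and 3.83 for ATPsynCF6L. The testis genes (25 of 29 higher, median difference 4.47) and the accessory gland genes (18 of 19 higher, 6.82) moved with the members, and all 15 eggshell genes were lower (median -4.60). In RNA of whole flies, fewer cells of a type and less RNA per cell cannot be told apart. The GAPDH control probesets differed less between their 3' and 5' ends on arrays labelled females (1.13 to 1.42) than on arrays labelled males (1.47 to 1.70), and the part of RNA quality in the difference was not tested.

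The widely transcribed paralogues differed far less between the same arrays. Of 9 such paralogues 7 were measured, since Cyt-c-p had no probeset of its own and that of ATPsynG was shared with another gene. At 1g, in a description only, the differences of these paralogues were 0.14 for COX4, 0.34 for COX5B, 0.34 for levy, -0.03 for COX7A, 0.15 for Cyt-c1, 0.50 for ATPsynCF6 and 0.49 for ATPsynbeta. At 0g, 4 of the 7 were called higher beside the 21.4% of all probesets, namely COX5B (0.34), levy (0.36), ATPsynCF6 (0.46) and ATPsynbeta (0.52), with limma adjusted p between 0.0018 and 0.014. COX4 (0.22), Cyt-c1 (0.10) and COX7A (-0.10) did not pass. None of the 4 calls held with arrays centred on their medians, under which COX7A (-0.49) and Cyt-c1 (-0.29) were called lower, so the direction of the paralogues depends on the scaling.

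A shift that adds equally to bright and dim genes drops out of the difference between a member and its paralogue on the same array. A member under background may not follow such a shift. COX5BL, COX7AL and ATPsynCF6L were under it on 3 of the 4 arrays labelled males at 0g. In 8 pairs, the member minus paralogue difference was compared at 0g between the 3 arrays labelled females and the 4 labelled males by an exact two-sided permutation test, of which 0.029 is the smallest p that 35 splits allow. It was higher on arrays labelled females by 5.00 for COX4L with COX4, at least 4.97 for COX7AL with COX7A, at least 4.36 for COX5BL with COX5B, 3.55 for Cyt-c1L with Cyt-c1, at least 3.23 for ATPsynCF6L with ATPsynCF6, 3.00 for COX6AL with levy and 1.37 for ATPsynbetaL with ATPsynbeta, each with an exact p = 0.029. For COX7AL2 with COX7A it was higher by 0.67, with an exact p = 0.057. These p-values were not adjusted over the 8 pairs. Between the arrays that were not mixed, 1 labelled females and 3 labelled males, the pair differences ran from 0.76 for COX7AL2 to 5.35 for COX4L, with COX7AL at least 5.06.

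**Figure D3:**
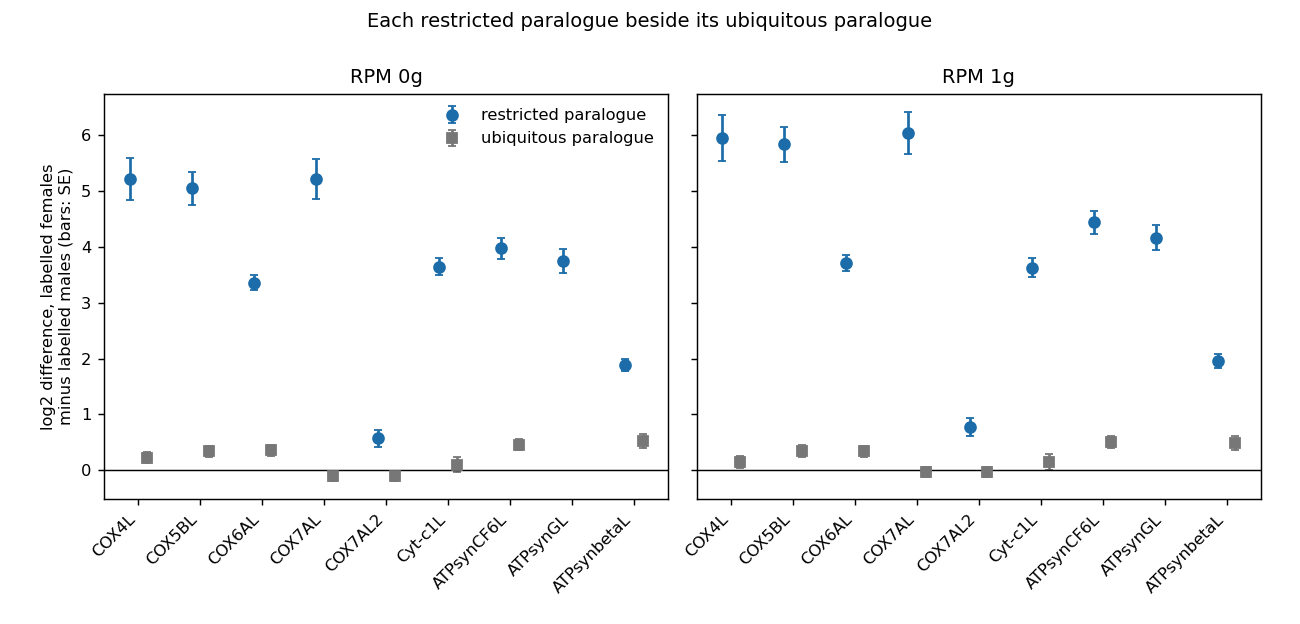
Log2 difference between RPM arrays labelled females and labelled males, with its standard error, for each member (blue circles) and its ubiquitous paralogue (grey squares) at 0g (left) and 1g (right). The fitted differences of members other than COX7AL2 lie between 1.89 and 5.22 at 0g, those of COX5BL, COX7AL and ATPsynCF6L against labelled males mostly under background, while the paralogues lie between -0.10 and 0.52.

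Other restricted copies of respiratory genes were measured on the same arrays, 11 of a list of 13. All 11 were called higher on the 0g arrays labelled females, beside the 21.4% of all probesets, with a median difference of 2.96 (2.58 with arrays centred on their medians). COX6AL2, a further copy of levy, averaged 8.36 on arrays labelled females and 4.38 on arrays labelled males (3.98, limma adjusted p = 2.1e-08). SdhBL, a copy of the iron-sulfur subunit of succinate dehydrogenase, averaged 8.06 on arrays labelled females and 3.76 on arrays labelled males, a difference of at least 3.80. ND-B14.5AL of complex I averaged 7.92 on arrays labelled females and 4.04 on arrays labelled males, at least 3.69. ATPsynepsilonL differed least, with 5.79 on arrays labelled females and 4.99 on arrays labelled males (0.80, limma adjusted p = 2.2e-04). Of the widely transcribed subunits 4 of 6 were called higher in complex III, 6 of 8 in complex IV and 8 of 12 in the ATP synthase, 1 further ATP synthase gene being lower. With arrays centred on their medians 2, 1 and 1 of them were called higher.

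The genes whose pattern over the 50 arrays was most like that of a member were mostly ones that are bright on the arrays labelled females, so the correlations rest on those 6 arrays and carry no test. COX4L was most like CG12617 (r = 0.995), COX5BL like Sfp33A3 (0.996), a seminal fluid protein gene, and tomboy20 (0.995), which encodes a testis form of a mitochondrial import receptor and was also the second most like COX7AL after CG31788 (0.996). ATPsynGL was most like CG14589 (0.993), ATPsynCF6L like CG31816 (0.993), COX6AL like CG6149 (0.992), Cyt-c1L like CG15258 (0.990) and ATPsynbetaL like CG43123 (0.974). Over the 37 magnet and LDC arrays, where COX5BL was at 5.08 and 5.02 on the 2 mixed arrays and at most 3.87 on the others, so that its correlations rest on those 2, the likest genes were other ones, such as Acp98AB (0.945) and Acp53Ea (0.940) for COX5BL and Mst87F (0.773) for COX6AL. Acp genes encode accessory gland proteins and Mst87F a sperm tail protein. The probesets of 3 members lie in genes that overlap another gene, namely COX5BL with Trmt6, COX6AL with Cyp4aa1 and ATPsynCF6L with Con, whose own differences at 1g were -1.76, 0.64 and 0.32.

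Outside the RPM arrays labelled females, the first 8 members stayed low, with 3 exceptions. On the 41 other arrays that were not mixed COX4L ran from 3.94 over a median of 4.30 to 4.89, COX5BL from 3.38 over 3.62 to 3.87, and COX7AL from 3.36 over 3.68 to 4.17. Cyt-c1L ran from 4.66 over 5.15 to 5.60 and ATPsynbetaL from 4.60 over 5.09 to 5.54, both above background. The 3 exceptions were mixed arrays. COX4L had 6.34 on the labelled male array at 0g, 5.97 on the first 1g* array of the magnet and 5.96 on the first 1g* array of the 80 h set, and COX5BL had 5.20, 5.08 and 5.02 on the same arrays. Of the 8 members, 5, 7 and 5 exceeded all 41 other arrays there. On these 3 arrays the testis genes had medians of 5.85, 5.77 and 5.56, against 3.89 to 4.37 on the 41, and the accessory gland genes 7.19, 8.51 and 8.05, against 3.71 to 4.18. ATPsynbetaL had 4.75 on the labelled male array, within the range of the 41.

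The gravity treatments were compared within each facility, and no member passed the threshold in any of these comparisons. On the RPM, 0 of 9 members differed between 0g and 1g in arrays labelled females (0% of all probesets called, limma) or labelled males (0.00533%), with 0 and 1 members at an unadjusted p under 0.05, against 6.5% and 5.7% of all probesets. The differences of the members ran from -0.38 to 0.14 in arrays labelled females, with a lowest adjusted p of 0.89, and from 0.02 to 0.50 in arrays labelled males. COX6AL (0.32) was the member at an unadjusted p under 0.05. Without the mixed array, replicate 1 of labelled males at 0g, the differences in arrays labelled males ran from -0.09 to 0.22, with COX6AL at 0.22. The 0g change was called different between the labels for no member (0 of 9 by limma, against 0% of all probesets, 0 at an unadjusted p under 0.05, differences -0.82 to 0.01, lowest limma adjusted p = 0.53).

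In the magnet, 0 of 9 members were called at 0g* against outside at 14C (0% of all probesets, limma), at 1g* against outside (0.0266%), at 2g* against outside (0%), at 0g* against 1g* (0.0213%), at 2g* against 1g* (0%) or outside at 24C against 14C (0.48%). The counts at an unadjusted p under 0.05 were 3 members for 1g* against outside, 3 for 0g* against 1g* and 1 for 2g* against 1g*, beside 18.6%, 23.0% and 14.3% of all probesets, and 0 members for the others. The differences of COX4L with 1g* rested on its mixed array. COX4L had 4.40 and 4.89 on the other 1g* arrays and 5.97 on that one, and its fitted difference of 1g* from outside at 14C, where it was under background, was 0.74 (SE 0.32, limma adjusted p = 0.25, a bound of at least 0.64), against 0.29 without that array. COX7AL2 had 11.61, 11.73 and 12.25 at 2g* against 12.77, 11.98 and 12.51 at 1g*. The groups overlapped, and the difference was -0.56 (SE 0.28, limma adjusted p = 0.38).

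In the magnet set of 80 h, 0 of 9 members were called at 0g* against 1g* (0.00533% of all probesets, limma), at 0g* against outside (0.927%) or at 1g* against outside (1.01%), with 1, 1 and 2 members at an unadjusted p under 0.05, beside 6.9%, 11.1% and 14.2% of all probesets. The 2 groups in the field were at 14C and the group outside at 24C, so field and temperature cannot be told apart in the last 2 comparisons. COX7AL2 had 11.69 and 12.03 at 0g* against 11.51 and 11.30 at 1g* and 11.53, 11.21 and 11.60 outside. It was higher at 0g* than at 1g* by 0.45 (SE 0.18, limma adjusted p = 0.7) and than outside by 0.41 (SE 0.17, limma adjusted p = 0.4), without overlap in either. The fitted differences of COX4L and COX5BL between 1g* and outside, where both were under background, were 0.95 and 0.74 (bounds of at least 0.85 and 0.07), and 0.13 and 0.05 without the mixed array.

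In the LDC at 20 days, 0 of 9 members were called at 2g against 1g (0.852% of all probesets, limma), at 2g against 1g-rot (2.01%) or at 1g-rot against 1g (0.00533%), with 0, 1 and 1 members at an unadjusted p under 0.05, beside 10.7%, 16.2% and 4.4% of all probesets. At 5 days 0 of 9 were called at 2g against 1g (0.0586%), at 2g against 1g-rot (0.165%) or at 1g-rot against 1g (0.0426%), with 0 at an unadjusted p under 0.05 in each. The 2g change was called different between the ages for no member (0 of 9 by limma, 0.0586% of all probesets, 0 at an unadjusted p under 0.05). COX7AL2 differed between 2g and 1g by -0.13 (SE 0.18) at 20 days and -0.16 (SE 0.18) at 5 days, with a difference of the changes of 0.02 (SE 0.26, limma adjusted p = 1). Among the paralogues ATPsynCF6 stood out, with 12.13, 12.30, 12.15 and 12.20 at 2g in flies of 20 days against 11.63 and 11.72 at 1g. The groups did not overlap, and the difference was 0.52 (SE 0.10, limma adjusted p = 0.019), while its restricted copy ATPsynCF6L was under background in both. The difference of the ATPsynCF6 changes between the ages was 0.67 (SE 0.14, limma adjusted p = 0.11).

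COX7AL2 was lower in the flies of 20 days in each of the LDC groups. At 2g it had 9.02, 9.04, 9.03 and 9.62 at 20 days against 12.32, 11.71, 12.17 and 12.31 at 5 days. In the rotational control it had 9.40 and 9.19 at 20 days against 12.01 and 11.95 at 5 days, and at 1g 9.24 and 9.38 against 12.28 and 12.29. The highest array of 20 days, at 9.62, lay below the lowest of 5 days, at 11.71, and the differences were -2.95 (SE 0.15) at 2g, -2.68 (SE 0.21) at 1g-rot and -2.97 (SE 0.21) at 1g. These differences chose the gene and are given without a test. Of the 18769 probesets, 22 fell further than COX7AL2 at 2g, 31 at 1g-rot and 22 at 1g, where 8.86%, 10.2% and 6.14% of all probesets were called lower. The lowest of the other 15 group means was 11.41 ± 0.15 (SD, n = 2, 80 h 1g*), 2.10 above the highest mean at 20 days, 9.31 ± 0.10 (SD, n = 2, 1g). That was the only gap in the order of the 18 group means larger than the SD of both neighbours. The 20-day groups were in the LDC alone, so only LDC flies bear on age. The probeset of COX7AL2 carries a suffix of the array's design for probes that may also match other transcripts, and is the only one of the members to do so.

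The paralogue COX7A stayed within 11.98 to 12.18 on all LDC arrays. It had 12.08, 12.13, 12.08 and 12.14 at 2g in flies of 20 days against 11.99 to 12.06 at 5 days, and differed by 0.08 (SE 0.07) at 2g, 0.04 (SE 0.10) at 1g-rot and -0.08 (SE 0.10) at 1g, signs that change with the scaling. The other 8 members differed by -0.28 to 0.38 between the ages, near or under background. The remaining measured paralogues were lower at 20 days, and at 1g the differences were -0.61 for COX4, -0.82 for COX5B, -0.69 for levy, -0.71 for Cyt-c1, -1.30 for ATPsynCF6 and -1.03 for ATPsynbeta. At 2g they were -0.54, -0.64, -0.52, -0.68, -0.63 and -0.74 in the same order. COX7AL2 had the largest difference with age among the 9 members and 7 paralogues in each of the 3 LDC groups. Nothing is read from this rank, since the fall of COX7AL2 with age served to choose the genes.

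**Figure D4:**
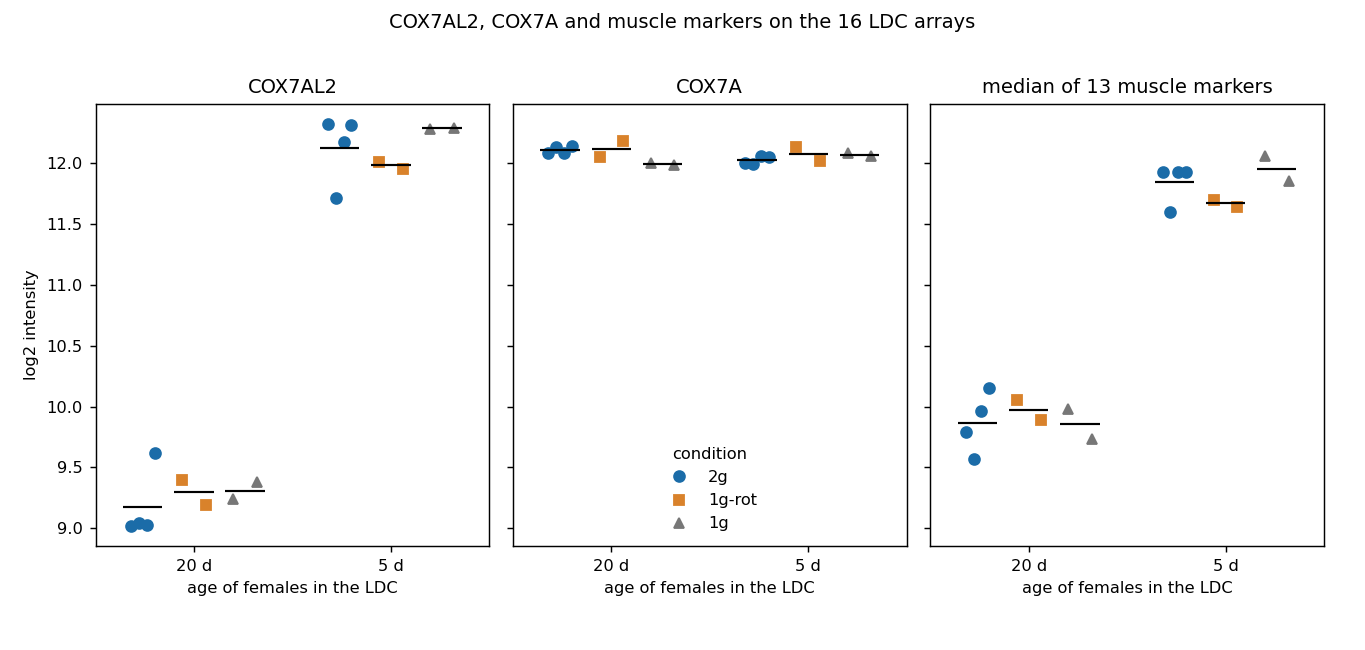
Log2 intensity of COX7AL2, of its paralogue COX7A and of the median of 13 muscle genes on the LDC arrays, with flies of 20 d left of flies of 5 d at 2g, 1g-rot and 1g; points are arrays and bars group means. COX7AL2 lies at 9.02 to 9.62 at 20 d and 11.71 to 12.32 at 5 d, COX7A between 11.98 and 12.18 throughout.

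Genes of the same complexes and of muscle were also lower at 20 days. Of the widely transcribed subunits 5 of 6 in complex III, 7 of 8 in complex IV and 11 of 12 in the ATP synthase were called lower at 1g, beside the 6.14% of all probesets, and ATPsynB (-1.45), ATPsyngamma (-1.30), COX7C (-0.88) and COX5A (-0.86) were examples. Of the 11 other restricted copies 0 were called in any of the 3 groups (limma). Their median at 2g was 4.26 to 4.64 at 20 days and 4.42 to 4.71 at 5 days. These levels are near background, so a fall with age could hardly be seen in them. Of 13 flight and body muscle genes 12 were called lower at 1g, 11 at 1g-rot and 12 at 2g, with medians of -1.43, -0.93 and -1.12, and 1 was higher at 1g-rot. The largest differences of the list at 1g were those of fln (-4.52), which encodes the flight muscle protein flightin, TpnC4 (-4.06), a troponin C of the flight muscle, and the muscle actin gene Act79B (-3.53). The part of muscle RNA in the COX7AL2 difference was not tested.

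The genes most like COX7AL2 over all 50 arrays were TpnC4 (r = 0.980), Scp1 (0.971), which encodes a calcium-binding protein, and SERCA (0.953), the calcium pump of the sarcoplasmic reticulum (0.985, 0.978 and 0.967 over the 37 magnet and LDC arrays), while r with COX7A was -0.125. Both sets of arrays include the 8 of 20 days, where COX7AL2 was lowest, and r without these 8 was not computed. Scp1 and SERCA were also lower at 20 days at 1g (differences of -3.28 and -2.89). The muscle list as a whole was not lower on the arrays of 20 days alone. Its median ran from 9.57 to 10.15 on the LDC arrays of 20 days and from 9.69 to 10.31 on the 7 magnet arrays of the 80 h set, whose flies were 5 days old, while COX7AL2 was between 9.02 and 9.62 on the first and between 11.21 and 12.03 on the second. The median need not stand for each gene of the list. TpnC4, a gene of the list, followed COX7AL2 closely (r = 0.985) over the 37 arrays, which include both of these sets. The levels of TpnC4, Scp1 and SERCA on the 80 h arrays are not given here. Outside the magnet at 24C the muscle median was 9.84, 11.65 and 10.31 with COX7AL2 at 11.26, 12.12 and 11.55 on the same arrays. The 80 h arrays also had the largest 3' to 5' difference of the eIF-4a control probesets, 2.43 to 3.34 against at most 1.88 elsewhere.

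**Figure D5:**
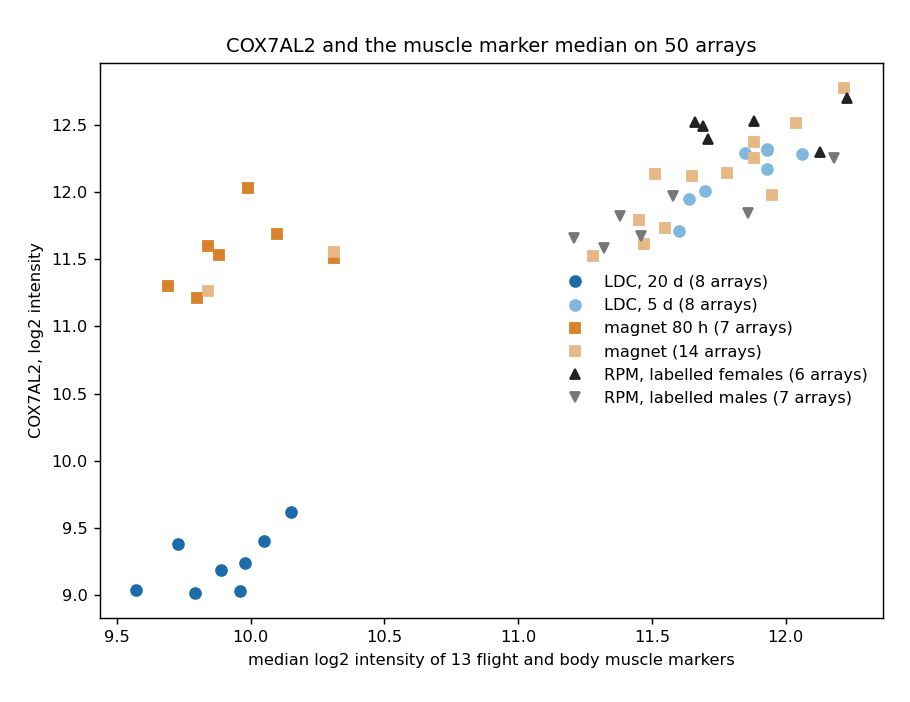
Log2 intensity of COX7AL2 (vertical axis) against the median log2 intensity of 13 muscle genes (horizontal axis) on the 50 arrays, marked by facility. The LDC arrays of 20 d (COX7AL2 9.02 to 9.62) and the magnet arrays of the 80 h set (11.21 to 12.03) have muscle medians in the same range, 9.57 to 10.31, and separate on COX7AL2. The median need not stand for each gene of the list, of which TpnC4 had r = 0.985 with COX7AL2 over the 37 magnet and LDC arrays.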

How the data were processed

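RNA of whole adult flies was hybridized to 50 Affymetrix Drosophila 2.0 arrays, 1 per sample. The authors deposited log2 intensities normalized with RMA; the tools named in the submitters' notes are RMA and limma, with no version stated in the labels or headers. Of 18952 probesets 183 controls were left out and 18769 were tested. The platform annotation gave 1 symbol to 13647 probesets, several to 402 and none to 4720. Groups were taken from the GEO titles. One outside-magnet array has 24C in its title and 14C in another label and was grouped by its title.

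Each facility was fitted with limma (version 3.58.1, R version 4.3.3) with group means and Benjamini-Hochberg adjustment over all 18769 probesets, and a probeset was called at an adjusted p under 0.05. Labels name replicates but not their source, so p-values measure only the spread between these arrays. No pair of arrays agreed within rounding (highest correlation 0.9963, at most 2.53% equal values). Array medians ran from 5.23 to 5.85, and the number of arrays limits the precision. Replicate numbers were not used to pair arrays across groups. Deviations of same-numbered arrays from their group means correlated at -0.34 (1g* and outside at 14C) to 0.47 (0g* and 1g*), both in the magnet. Where the lower group of a contrast was under the plant control background on all or most arrays, the difference is a bound: the higher mean minus the mean over the dim arrays of the larger of their background and their own value. The members, their paralogues, the gene lists and the tests were chosen with earlier results of these data known. All members and paralogues are named, with at most 4 examples of each other list. For each member the most similar genes by Pearson r over the arrays were listed. Alternatives were quantile normalization, centring on array medians, a filter on dim probesets, trend and robust variance, an array-letter block, a replicate block, a fit of only the compared groups, leaving out each array or the 6 mixed arrays, and regrouping the outside-magnet array. The fits were tested on simulated data.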

Additional observations from a re-analysis of the deposited data

Results flagged for a closer look

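In groups of 4 arrays, 6 values of a member or paralogue stood far from the other 3, of 48 such groups and genes tested; chance alone marks about 1 in 20. In RPM labelled males at 0g, replicate 1 had COX4L at 6.34 (others 4.20 to 4.43), COX5BL at 5.20 (3.62 to 3.74), COX7AL at 5.35 (3.58 to 3.77), ATPsynCF6L at 4.63 (3.68 to 3.81) and the paralogue COX5B at 12.58 (12.31 to 12.34). This is the array with transcripts of both sexes. In the LDC at 2g and 20 days, replicate 4 had COX7AL2 at 9.62, while the others were at 9.02 to 9.04. Of 32 tests of whether a gravity change differed between the labels or the ages, 0 passed (limma).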

How the results depend on the processing

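Of 322 alternative values of the members' counts of calls and median differences, 313 stayed within 1.5 times (counts) or the spread between replicates (medians), and no called difference of a member reversed. Among the values of single members and of member and paralogue pairs 2818 kept their call or stayed within that spread, 15 moved, 12 gained a call and 50 lost one, namely 49 pair tests with an array left out and COX7AL2 at 0g with arrays centred on their medians. The median member difference of the RPM labels at 1g was 3.80 with arrays centred on their medians, against 4.17. Without the second 1g* array, which leaves the mixed array as 1 of 2 in the magnet and alone in the 80 h set, where its spread is assumed to be that of the other groups, counts of called members ran up to 1 for 1g* against outside at 14C (COX4L), up to 3 for 0g* against 1g* (COX4L, COX6AL, COX7AL), and in the 80 h set up to 3 for 0g* against 1g* and up to 3 for 1g* against outside (COX4L, COX5BL and COX7AL in both), against 0 in each. With trend and robust variance, or with a replicate block, 1 member, COX7AL, was called at 2g against 1g-rot at 20 days, under background in both groups. The median age difference of the members at 1g lay near 0 and changed sign, at 0.01 in the fit as reported, -0.20 under the dim filter, and -0.09 to -0.02 when single arrays were left out. Leaving out an array lifts the smallest possible exact p of the member and paralogue pairs above 0.05, so that none can pass. The array-letter block could not be fitted in 6 comparisons, and other probesets of a member were not run because each has 1. The number of arrays and, for COX5BL, COX7AL and ATPsynCF6L, signal at background limit what differences can be seen.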
